A study of Homo sapiens with 6 samples.

Results

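The genes that build caveolae were followed in RNA sequencing of samples labelled AGS, a gastric adenocarcinoma line, with and without depletion of the RNA demethylase FTO. The set was taken by gene name as 3 caveolins (CAV1, CAV2, CAV3), 4 cavins (CAVIN1, CAVIN2, CAVIN3, CAVIN4, also known as PTRF, SDPR, PRKCDBP and MURC) and 3 coat proteins (EHD2, PACSIN2, PACSIN3). Symbols were read from Ensembl identifiers, and all 10 were found among the 58174 genes of the expression table. There were 3 si-NC and 3 si-FTO libraries by title, all labelled as AGS cells from stomach. The genotype label of the same samples reads FTO-/- in the si-FTO samples and wild type in the others. The study describes siRNA, and the libraries were grouped here by their titles. The sample labels do not say whether the 3 libraries of a group came from separate cultures, and the study speaks of independent experiments only in general. Each gene has 1 value per group, the authors' mean in TPM, a share of transcripts scaled for gene length, so the spread between libraries is unknown and no difference below carries an error, an n or a test. The authors' own p-values and q-values per gene were not used. TPM keeps no depth, and the depth of the libraries is unknown.

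Caveolae are flask-shaped pits of the plasma membrane, rich in cholesterol and sphingolipid. Caveolins are hairpin membrane proteins that oligomerise in the bilayer, and cavins are cytosolic trimers that wrap the caveolin scaffold and are released when membrane tension flattens the pit. EHD2 is an ATPase that sits at the neck and holds caveolae at the surface, and the PACSIN proteins (also called syndapins) bend membrane through an F-BAR domain. CAV1, CAV2, CAVIN1 and EHD2 are abundant in adipocytes, endothelium and fibroblasts, whereas CAV3 and CAVIN4 are the muscle forms.

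Among the 10 genes, most were more abundant in si-FTO, and the cavins moved the most as a sum. CAVIN1 rose from 14.0 to 132 TPM, EHD2 from 3.12 to 33.8 TPM, PACSIN3 from 44.5 to 139.8 TPM and CAV1 from 9.98 to 33.6 TPM. CAVIN3 went from listed at 0 to 37.8 TPM. The muscle cavin CAVIN4 went the other way, from 4.70 to 0.840 TPM. CAV2 and PACSIN2 stayed within 2-fold. In what follows, the log2 ratio is that of si-FTO over si-NC with 1 TPM added to each mean, which understates the change of low genes, and a fold is the plain quotient of the means. A gene was compared where its mean reached 0.5 TPM in at least 1 group, and "rose" or "fell" stands for a log2 ratio of 1 or more in that direction, in place of a test. A gene that reached 0.5 TPM in 1 group alone could be counted only toward that group. A value of 0.0001 TPM was read as 0, and such genes are called listed at 0. No ratio is printed for them, but their ratio with 1 TPM added enters their call as risen or fallen, the list medians and the ranks. Where a pair of levels is given without group names, the first is si-NC and the next si-FTO.

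Of the 10 members, 9 were compared. Among them 6 rose, 1 fell and 2 were within 2-fold. CAV3 was below the limit in both groups. Of the 6 that rose, CAVIN2 and CAVIN3 were listed at 0 in si-NC, and could pass the limit through si-FTO alone. For comparison, 11.4% of the 20493 genes compared across the table rose and 17% fell. The members were chosen with earlier results of these data known, so no excess over these shares is read from the counts. At a minimum of 5 TPM in at least 1 group, 7 members were compared, of which 5 rose and 0 fell, beside 13.3% of 12967 genes that rose and 17.4% that fell. Of these 5, EHD2 and CAVIN3 reached 5 TPM in si-FTO alone, so the filter itself favoured their being counted as risen. Over every gene compared, the median log2 ratio was -0.20, and 40.1% of them had a higher mean in si-FTO. Relative to that median, the log2 ratios were 3.34 for CAVIN1, 3.28 for EHD2, 1.86 for CAV1, 1.83 for PACSIN3, 0.78 for CAV2, -0.24 for PACSIN2 and -1.43 for CAVIN4. CAV1 was chosen by the study for its elevation in these same libraries, so its rise is not independent evidence of a direction for the group. The study also reported higher CAV1 in FTO-depleted AGS cells by qRT-PCR and, for the protein, by Western blotting.

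**Figure D1:**
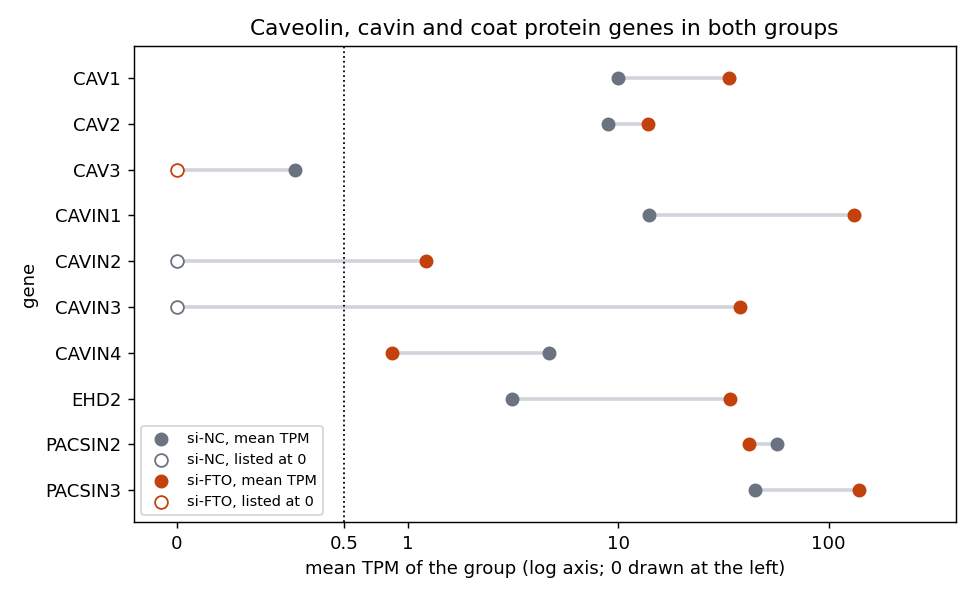
Mean TPM of the 10 genes on a log axis, with si-NC in grey and si-FTO in orange; each point is the authors' mean of a group, open circles mark genes listed at 0, and the dotted line is the 0.5 TPM limit. The orange point lies to the right for 7 genes and to the left for CAV3, CAVIN4 and PACSIN2.

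FTO itself, the depleted gene, fell from 33.1 to 7.27 TPM, so 21.9% of the control level was left (log2 ratio -2.05). The cell type was then checked against its markers. Of the 13 gastric epithelial markers, 9 were compared, 4 rose and 3 fell, beside 11.4% and 17% of all compared genes. The levels of the markers summed to 127 and 5119 TPM. Several markers went against the label of a gastric epithelial line. EPCAM, the pan-epithelial adhesion molecule, had 1.22 and 0.113 TPM. KRT19 was listed at 0 in si-NC and had 0.130 TPM in si-FTO, and the gastric peptide TFF1 was listed at 0 in both groups. E-cadherin (CDH1) had 3.67 and 0.685 TPM. The keratin KRT8, at the top of the list in si-FTO, went from 10.8 to 3139 TPM, and its partner KRT18, at the top in si-NC, from 52.1 to 1851 TPM. The epithelial factor ELF3 rose from 0.115 to 93.3 TPM and the mucin MUC1 from 1.71 to 31.0 TPM. The endoderm factors moved the opposite way: GATA6 fell from 20.3 to 2.54 TPM, and GATA4 went from 37.0 TPM to listed at 0. ELF3 reached 0.5 TPM in si-FTO alone and GATA4 in si-NC alone, so each could be counted only toward that group.

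Because caveola genes are abundant in other cell types, markers of 4 of these were read as well. The marker counts are read beside the 11.4% of all compared genes that rose and the 17% that fell. Of 9 endothelial markers found, 2 were compared and both rose, and the levels summed to 0.730 and 44.5 TPM. Both reached 0.5 TPM in si-FTO alone, so they could be counted only as risen. VE-cadherin (CDH5) made up most of the si-FTO sum, with 0.00827 and 40.9 TPM, and the factor ERG had 0.0226 and 3.18 TPM. The other defining endothelial markers were at or near 0 in both groups: VWF had 0.00493 and 0.0537 TPM, TEK had 0.00593 and 0.0147 TPM, EMCN was listed at 0 in both, and PLVAP was listed at 0 in si-NC with 0.0377 TPM in si-FTO. The most abundant of them in si-NC, KDR, had 0.401 TPM there and was listed at 0 in si-FTO. Of 7 adipocyte markers, 3 were compared and 1 rose, with sums of 44.8 and 158 TPM. The rise was that of lipoprotein lipase (LPL), from 2.08 to 113 TPM; PPARG, at 41.8 and 44.7 TPM, was the most abundant in si-NC. PLIN1, with the smallest ratio of those compared, had 0.879 and 0.417 TPM (log2 ratio -0.41). ADIPOQ, FABP4, LEP and CIDEC, which define fat cells, were listed at 0 in both groups. Of 9 fibroblast markers, with sums of 17.0 and 46.8 TPM, 7 were compared. Among them 3 rose and 2 fell (0 with quantile normalization or at a minimum of 5 TPM). Of these 5, PDGFRB and FAP reached 0.5 TPM in si-FTO alone, and COL3A1 and PDGFRA in si-NC alone. COL1A1 led that list with 10.3 and 36.4 TPM, but its partner chain COL1A2 had 0.00982 TPM in si-NC and was listed at 0 in si-FTO. Of 10 muscle markers, 4 were compared and 0 rose or fell, with sums of 12.2 and 16.3 TPM. However, 1 rose under either scaling tried, and 1 rose and 1 fell with a pseudocount of 0.1. ACTA2 led with 6.51 and 10.4 TPM, and MYOG was listed at 0 in both groups. DES had the largest ratio, with 0.536 and 1.92 TPM, and ACTA1 the smallest, with 1.24 and 0.499 TPM. The part of these marker differences in the caveola gene values was not tested, and in bulk RNA fewer cells of a type and less RNA per cell cannot be told apart. Whether the libraries under both labels hold the same cells was not tested either, and a difference in cells and the depletion of FTO cannot be told apart in these group means.

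CAV1 is the structural protein without which non-muscle caveolae do not form, and CAV2 joins it in hetero-oligomers. Both lie on the plus strand of chromosome 7, CAV1 (ENSG00000105974) from 116165048 to 116201233 and CAV2 (ENSG00000105971) from 115927434 to 116148595 of GRCh37. CAV1 had 9.98 and 33.6 TPM, with a log2 ratio of 1.66 and a fold of 3.37. CAV2 had 8.93 and 13.8 TPM, a log2 ratio of 0.58 and a fold of 1.55, within the limit. The 2 genes were therefore close in si-NC, with 1.12 CAV1 transcripts for each of CAV2, and further apart in si-FTO, with 2.43. In rank, CAV1 went from above 52.8% of the compared genes to above 77.2%, and CAV2 from above 50.8% to above 60.3%. CAV3 (ENSG00000182533, chromosome 3, 8775488 to 8883492, plus strand), the caveolin of striated muscle, had 0.292 TPM in si-NC and was listed at 0 in si-FTO. It overlaps SSUH2, OXTR and RAD18 on the opposite strand, at 0.611, 0.534 and 13.1 TPM in si-NC. Whether the counting used strand is not given in the sources used here, so reads of overlapping genes cannot be told apart. By the sum of the 3 caveolins, the level was 19.2 and 47.4 TPM, a fold of 2.47, and the share of CAV1 in it was 52.0% and 70.9%.

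The start regions of the CAV1 and CAV2 genes are shown because CAV1 rose while its neighbour CAV2 was within the limit. Windows of 250 bases before to 50 after the start came from a RefSeq table that matched 7 of the 10 members; CAVIN1, CAVIN3 and PACSIN3 were not matched. They are the first of 3 windows listed for CAV1 and of 2 for CAV2, and need not lie at the outermost start of the gene span given above. Capitals mark matches on either strand to the words GGGCGG (bound by Sp1), GGAATG (TEAD), TGANTCA (AP-1) and TATAAA (the TATA box), or to the CArG box of SRF.
CAV1 promoter window, plus strand, chr7:116524759-116525058 of GRCh38.p14: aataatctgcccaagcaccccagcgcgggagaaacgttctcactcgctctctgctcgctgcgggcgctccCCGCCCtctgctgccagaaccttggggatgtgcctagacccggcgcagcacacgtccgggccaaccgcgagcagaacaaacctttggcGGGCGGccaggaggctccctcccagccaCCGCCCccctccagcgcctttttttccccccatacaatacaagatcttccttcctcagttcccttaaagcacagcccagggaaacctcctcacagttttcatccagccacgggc
CAV2 promoter window, plus strand, chr7:116499488-116499787 of GRCh38.p14: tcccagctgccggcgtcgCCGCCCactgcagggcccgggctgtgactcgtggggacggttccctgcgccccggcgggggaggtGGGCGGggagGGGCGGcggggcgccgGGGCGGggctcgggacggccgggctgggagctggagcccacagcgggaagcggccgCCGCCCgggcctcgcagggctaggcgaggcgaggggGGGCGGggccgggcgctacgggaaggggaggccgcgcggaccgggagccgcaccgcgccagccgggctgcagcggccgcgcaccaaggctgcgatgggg
The CAV1 window held 3 GGGCGG words and 19 CpG dinucleotides at 62.3% GC, and the CAV2 window held 6 such words and 43 CpG at 82.7% GC, with 0 overlapping matches in either. The median over 27305 promoter windows was 14 CpG and 58.3% GC, and 44.6% of them held GGGCGG. None of the other words was found in these 2 windows. Of all windows, GGAATG was in 14.0%, TGANTCA in 7.76%, TATAAA in 12.0% and the CArG box in 1.29%. A match is a description of letters, not of binding.

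The coding sequences of the caveolins were aligned because the methylation site that the study predicted in CAV1 lies at a TGACT word. With the adenosine of that word at nucleotide 200 of the 534 coding nucleotides of CAV1 (chromosome 7, 116199004), the aligned 5 bases, in capitals, were TGACT in CAV1, GGGCT in CAV2 and GGATT in CAV3. Each stretch of 27 bases below crosses an exon junction and is shown as spliced.
CAV1 coding sequence around its nucleotide 200: gtggtcaagatTGACTttgaagatgtg
CAV2 coding sequence around its nucleotide 155: catctcaagctGGGCTtcgaggatgtg
CAV3 coding sequence around its nucleotide 119: atagtcaaggtGGATTttgaagacgtg
Over the aligned coding bases, CAV1 and CAV3 were 71.1% identical, CAV1 and CAV2 54.3%, and CAV2 and CAV3 54.2%, and no run longer than 16 bases was shared between transcripts of any pair. GGACT, another form of the methylation motif, occurred 0 times in CAV1 and 1 time in CAV2, and TGACT 1 time in each. GGACT was found in 74.8% and TGACT in 67.3% of 14026 coding sequences. Among the other members that rose, CAVIN1 and CAVIN2 each held 0 GGACT and 1 TGACT, CAVIN3 held 0 of both, EHD2 held 1 GGACT and 0 TGACT, and PACSIN3 held 0 GGACT and 3 TGACT. CAVIN4, which fell, held 0 GGACT and 1 TGACT, and PACSIN2, within the limit, held 2 of each. Only GGACT and TGACT were searched, and only in coding sequence, so other forms of the motif and the untranslated regions were not read. The data used here hold no measure of methylation. The study measured methylated CAV1 mRNA separately, by immunoprecipitation and PCR.

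Of the 3 roles, the cavins had the highest fold of their summed level. CAVIN1 (ENSG00000177469), which every caveola needs and which was first described as a factor of RNA polymerase I, lies on the minus strand of chromosome 17 from 40554467 to 40575274. It had 14.0 and 132 TPM, a log2 ratio of 3.14 and a fold of 9.38. Its level stood above 59.0% of compared genes under si-NC and above 94.3% under si-FTO. CAVIN3 (ENSG00000170955, chromosome 11, 6340176 to 6341762, minus strand), which links caveolae to signalling kinases, was listed at 0 in si-NC and had 37.8 TPM in si-FTO. It was among 65 genes that reached 10 TPM or more in si-FTO while listed at 0 in si-NC, beside 177 genes in the opposite case. The antisense gene ENSG00000282556 overlaps CAVIN3 and was listed at 0 in si-NC with 0.478 TPM in si-FTO. CAVIN2 (ENSG00000168497, chromosome 2, 192699036 to 192711814, minus strand), which helps shape caveolae in some endothelia, was listed at 0 in si-NC and reached 1.23 TPM in si-FTO.

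CAVIN4 (ENSG00000170681, chromosome 9, 103340361 to 103350671, plus strand), the muscle cavin, was the single member that fell, from 4.70 to 0.840 TPM, 5.59-fold lower in si-FTO (log2 ratio -1.63). The 4 cavins together summed to 18.7 and 171 TPM, a fold of 9.16. CAVIN1 made up 74.9% and 76.7% of the sum, while the remainder passed from CAVIN4 (25.1% and 0.490%) to CAVIN3 (0 and 22.1%). CAVIN1 transcripts per CAV1 transcript went from 1.41 to 3.91, and in si-FTO there were 1.13 CAVIN3 transcripts per CAV1 transcript. The coding sequences of the cavins were 52.9% to 61.0% identical in pairs, and their longest shared run was 24 bases, between CAVIN1 and CAVIN2. The window of CAVIN4 is shown as that of the member that fell.
CAVIN4 promoter window, plus strand, chr9:100577829-100578128 of GRCh38.p14: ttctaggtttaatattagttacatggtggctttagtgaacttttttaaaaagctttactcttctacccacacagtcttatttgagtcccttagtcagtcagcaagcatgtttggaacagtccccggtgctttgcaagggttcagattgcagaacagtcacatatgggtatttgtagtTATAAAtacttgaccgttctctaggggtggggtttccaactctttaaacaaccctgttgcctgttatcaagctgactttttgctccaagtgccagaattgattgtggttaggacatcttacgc
It held 1 TATAAA word, 3 CpG and 41% GC, without any of the other words. The windows of CAVIN2 and CAV3 were also below the median in CpG, with 5 in CAVIN2, which held 1 GGAATG word, and 7 in CAV3, which held none of the words.

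**Figure D2:**
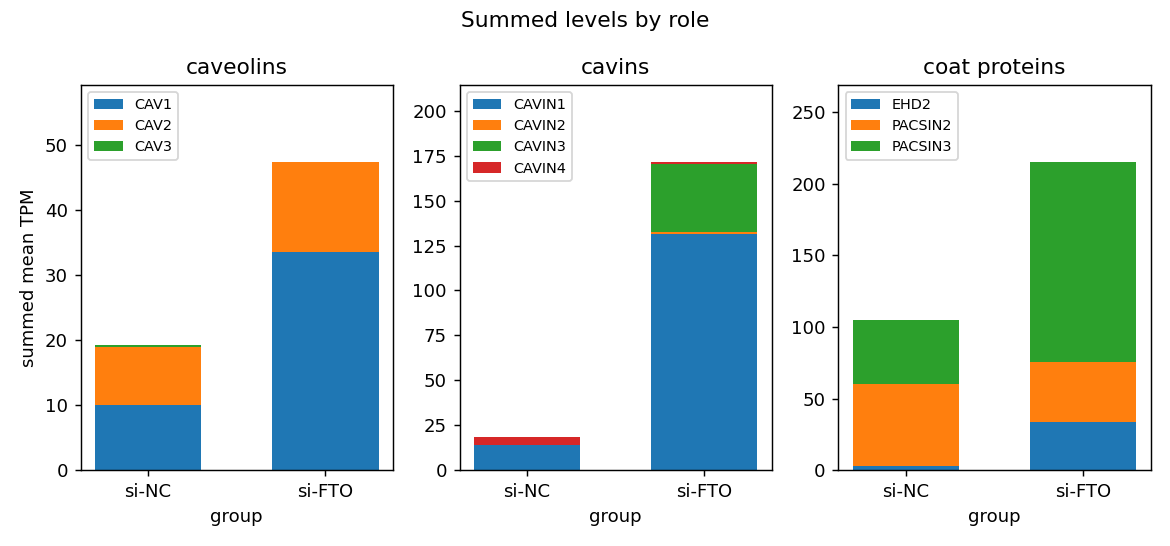
Summed mean TPM of the caveolins, cavins and coat proteins in si-NC and si-FTO, stacked by gene; each panel has its own axis from 0 and the values are the authors' group means. The sums went from 19.2 to 47.4, from 18.7 to 171 and from 105 to 215 TPM.

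Among the coat proteins, EHD2 and PACSIN3 rose and PACSIN2 did not. EHD2 (ENSG00000024422, chromosome 19, 48216679 to 48246391, plus strand) had 3.12 and 33.8 TPM, a log2 ratio of 3.08 and a fold of 10.8, the highest fold among members with a value above 0 in both groups. EHD2 transcripts per CAV1 transcript went from 0.313 to 1.00. PACSIN3 (ENSG00000165912, chromosome 11, 47199073 to 47207994, minus strand), best known from muscle, had 44.5 and 139.8 TPM, a log2 ratio of 1.63 and a fold of 3.15. PACSIN2 (ENSG00000100266, chromosome 22, 43231418 to 43411155, minus strand), the broadly made form that shapes caveolar necks, had 57.0 and 41.6 TPM, a log2 ratio of -0.44. PACSIN2 was the more abundant of the pair in si-NC and PACSIN3 in si-FTO, with 0.780 and 3.36 PACSIN3 transcripts per PACSIN2 transcript. The 3 coat genes summed to 105 and 215 TPM, a fold of 2.06, and the sum over all 10 members was 143 and 434 TPM, a fold of 3.05. Cavins made up 13.1% and 39.5% of that total, and coat proteins 73.4% and 49.6%.

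The start region of EHD2 is shown because its fold was the highest among members above 0 in both groups.
EHD2 promoter window, plus strand, chr19:47713172-47713471 of GRCh38.p14: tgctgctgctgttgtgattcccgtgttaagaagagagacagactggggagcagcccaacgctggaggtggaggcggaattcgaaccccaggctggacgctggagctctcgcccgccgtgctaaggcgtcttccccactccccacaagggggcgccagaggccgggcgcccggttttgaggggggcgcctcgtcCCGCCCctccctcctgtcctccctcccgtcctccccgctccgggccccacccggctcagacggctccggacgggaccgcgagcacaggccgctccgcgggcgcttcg
This window held 1 GGGCGG word, 30 CpG and 71% GC, with none of the other words. The PACSIN2 window held 1 GGAATG word and 4 CpG at 47% GC, and the table lists 6 windows for that gene, of which the first was read.

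**Figure D3:**
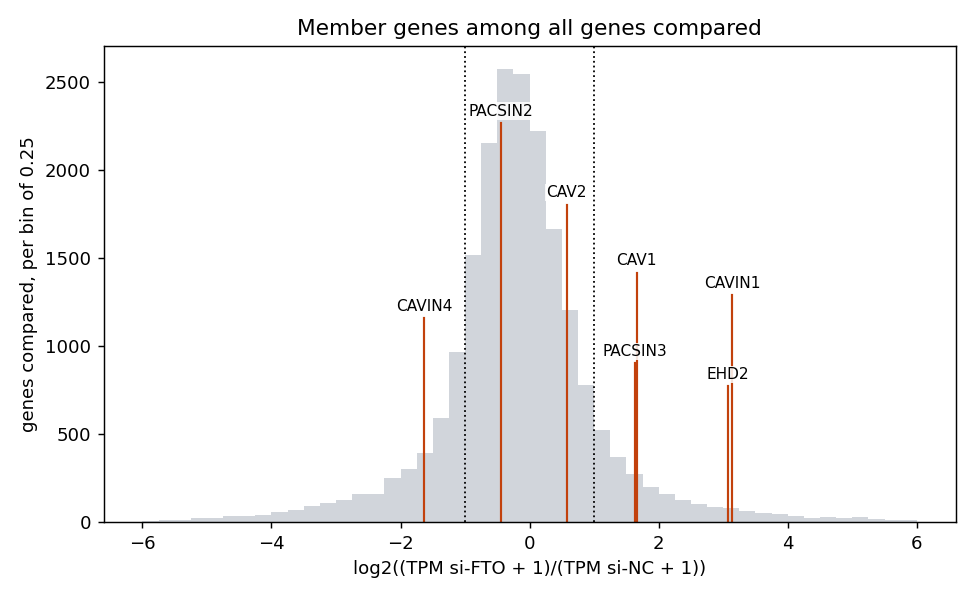
Histogram of the log2 ratio of si-FTO over si-NC, with 1 TPM added, for genes compared, in bins of 0.25; 89 genes lie outside -6 to 6. Orange lines mark the 7 members with a value above 0 in both groups and dotted lines the 2-fold limits, and CAVIN1 and EHD2 stand at 3.14 and 3.08.

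By the size of the log2 ratio among the 2340 genes that rose, CAVIN1 ranked 444, EHD2 465, CAV1 1276 and PACSIN3 1292. CAV1 thus stood near the middle of the risen genes. CAVIN3 ranked 103 and CAVIN2 1995, but both were listed at 0 in si-NC, so their ranks depend on the 1 TPM added. The 5 genes closest to CAV1 in both group means, by distance on the log2(TPM + 1) scale over the 2 groups, were ZC3H12A (9.65 and 32.6 TPM, distance 0.06), ARHGEF3, TP53I3, COL1A1 and PPP1R13L (9.54 and 36.8 TPM, distance 0.14).

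EHD2 and the PACSIN proteins belong to families whose other genes serve endosomes or neurons, and those were compared as well. Of the 4 paralogs, 1 rose and 2 fell (1 with quantile normalization or at a minimum of 5 TPM), beside 11.4% and 17% of all compared genes. Their median log2 ratio was -0.70 (-1.66 with a pseudocount of 0.1 and -0.27 at a minimum of 5 TPM). The 2 that fell, EHD3 and PACSIN1, reached 0.5 TPM in si-NC alone. EHD1, which acts in endocytic recycling, rose from 22.7 to 47.1 TPM with a log2 ratio of 1.02, just past the limit. EHD3 went from 14.4 TPM to listed at 0, EHD4 had 18.8 and 15.4 TPM, and the neuronal PACSIN1 had 1.35 and 0.0754 TPM. The EHD family as a sum went from 59.0 to 96.3 TPM, and within it the share of EHD2 went from 5.29% to 35.1%. The PACSIN family went from 103 to 182 TPM, with a PACSIN3 share of 43.3% and 77.0%. EHD coding sequences were 73.2% to 82.3% identical in pairs, and EHD2 shared no run longer than 32 bases with a paralog. How the authors divided reads that match several paralogs is not known in detail, and the PACSIN and EHD values carry that uncertainty.

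Of 8 genes of proteins that phosphorylate, anchor or move caveolins, 8 were compared and 0 rose or fell past 2-fold. Their median log2 ratio was 0.32. Across all compared genes, 11.4% rose and 17% fell. Filamin A (FLNA), which ties caveolae to actin, was the most abundant at 333 and 494 TPM. The kinase FYN had the highest ratio, with 73.1 and 127 TPM and a log2 ratio of 0.78, and DIAPH1 the lowest, with 136 TPM in both groups.

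Receptors, channels and enzymes reported in caveolae were more divided. Of 16 genes, 15 were compared, 6 rose and 2 fell (1 with quantile normalization or at a minimum of 5 TPM). Their median log2 ratio was 0.38 (0.88 at a minimum of 5 TPM and 0.26 with no filter). The epidermal growth factor receptor EGFR rose from 6.46 to 50.1 TPM, a log2 ratio of 2.78. The integrin chain ITGB1 rose from 83.3 to 298 TPM and was the most abundant in si-FTO. The lipoprotein receptor SCARB1, the most abundant in si-NC, rose from 104 to 216 TPM, the TGF-beta receptor TGFBR2 from 8.26 to 23.5 TPM, the adenylyl cyclase ADCY6 from 17.0 to 38.7 TPM and PDGFRB from 0.370 to 5.34 TPM. The cation channel TRPC1, the lowest in ratio, fell from 6.16 to 1.42 TPM, and PDGFRA went from 1.03 TPM to listed at 0. PDGFRB reached 0.5 TPM in si-FTO alone and PDGFRA in si-NC alone. Over all compared genes, 11.4% rose and 17% fell.

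Caveolae depend on cholesterol and sphingomyelin, and genes of their supply were read as a further list. Of 11, all were compared, 3 rose and 0 fell, with a median log2 ratio of 0.05. The shares over all compared genes were 11.4% and 17%. At a 4-fold limit, 0 of the 11 rose. The lysosomal cholesterol carrier NPC2 rose from 90.9 to 233 TPM, the sphingomyelin synthase SGMS1 from 10.3 to 23.0 TPM and the exporter ABCA1 from 0.939 to 3.37 TPM. SPTLC2, of the first step of sphingolipid synthesis, had the lowest ratio, with 18.0 and 13.3 TPM. SREBF2, the master regulator of cholesterol synthesis, had 112 and 108 TPM.

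Other membrane scaffolds served as a comparison. Their counts are read beside the 11.4% of all compared genes that rose and the 17% that fell. Of 10 genes of the flotillin and SPFH family, which form membrane domains without caveolins, 9 were compared, 1 rose and 1 fell, with a median log2 ratio of 0.02. Stomatin (STOM) rose from 39.9 to 221 TPM, and the mitochondrial STOML2 fell from 374 to 168 TPM. The flotillin FLOT1 had 99.1 and 161 TPM, within the limit, and the prohibitin PHB2 was the most abundant at 393 and 251 TPM. Of 31 genes of clathrin coats and dynamins, 30 were compared, 2 rose and 3 fell, with a median of -0.04. The adaptor DAB2 rose from 12.2 to 126 TPM and the amphiphysin relative BIN1 from 46.7 to 116 TPM. The dynamin of neurons, DNM1, fell from 83.0 to 1.63 TPM (log2 ratio -5.00), whereas DNM2, the ubiquitous form, had 106 and 139 TPM. SNAP91 fell from 2.96 to 0.00886 TPM, and AMPH went from 9.52 TPM to listed at 0; both reached 0.5 TPM in si-NC alone. The adaptor subunit AP2M1 was the most abundant, at 354 and 346 TPM. Of 12 other F-BAR genes, 11 were found and 10 compared, 2 rose and 1 fell, with a median of -0.04. At a minimum of 5 TPM, 0 rose and 0 fell. TRIP10 was the most abundant at 80.8 and 101 TPM, FES, at 0.5 TPM or more in si-FTO alone, rose from 0.379 to 1.84 TPM, SRGAP1 from 1.33 to 3.75 TPM, and GAS7 fell from 4.70 to 0.965 TPM.

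Genes of transcription factors linked to caveola genes were also listed, since SRF with its MRTF cofactors and YAP with TEAD are known to act at CAV1 and CAVIN genes. Of 9, all were compared, 3 rose and 0 fell, with a median log2 ratio of 0.01. The shares over all compared genes were 11.4% and 17%. At a 4-fold limit, 1 of the 9 rose. TEAD1 rose from 21.6 to 109 TPM, a log2 ratio of 2.28, YAP1 from 43.6 to 94.2 TPM and its relative WWTR1 from 23.2 to 53.8 TPM. SRF had 54.7 and 43.0 TPM, the lowest ratio of the list.

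**Figure D4:**
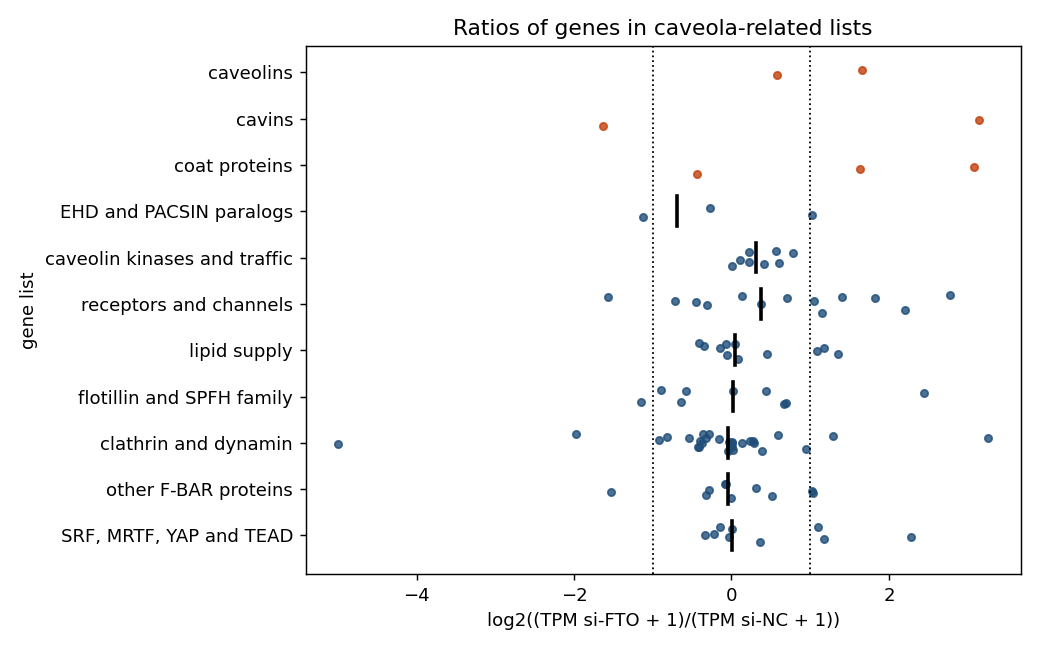
Log2 ratios of compared genes in each list, with 1 TPM added; each point is a gene with a value above 0 in both groups, vertical bars are list medians over all compared genes (not drawn for the members), dotted lines the 2-fold limits. Members, in orange, range from -1.63 to 3.14, and the 8 genes of caveolin kinases and traffic lie within the limits.

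Neighbouring genes were read to set each member beside its surroundings on the chromosome. The 20 nearest compared genes around each member, 10 on each side, had median log2 ratios of -0.03 for CAV1, -0.27 for CAV2, 0.03 for CAV3, 0.18 for CAVIN1, -0.06 for CAVIN2, 0.17 for CAVIN3, -0.19 for CAVIN4, -0.28 for EHD2, -0.95 for PACSIN2 and 0.52 for PACSIN3. With the 10 nearest genes the sign turned for CAV1 and CAV2 (both 0.36), CAV3 (-0.06) and CAVIN2 (0.30), and with 50 it turned for CAVIN1 (-0.20). With no filter on low genes, all 10 medians lay between -0.03 and 0.03, so no direction is read from them beyond the genes compared. CAV1 and CAVIN2 also turned under both scalings tried, to 0.06 and 0.03 with median-ratio scaling and to 0.18 and 0.22 with quantile normalization. The median around PACSIN2 was the lowest, and 8 of its 20 neighbours fell while 1 rose. Of those that fell, SERHL2, SERHL and SCUBE1 reached 0.5 TPM in si-NC alone, so they could be counted only as fallen. Over all compared genes, 17% fell and 11.4% rose. Of the 10 nearest to PACSIN2, 1 fell and 1 rose, and of the 50 nearest, 18 fell and 2 rose. ARFGAP3, which overlaps PACSIN2 on the same strand, had 37.8 and 18.6 TPM (log2 ratio -0.99), and TTLL1 on the other side had 6.10 and 2.69 TPM. Around PACSIN3, 5 of 20 rose and 1 fell; ARFGAP2 had 57.6 and 84.3 TPM, and the unnamed gene ENSG00000256897 had 0.442 and 1.46 TPM.

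CAV1 has CAV2 on its lower side and MET on the other, which rose from 33.9 to 83.3 TPM, and the neighbour of CAV2 is TES, with 23.2 and 41.8 TPM. On the lower side of CAVIN1, STAT3 rose from 31.8 to 118 TPM (log2 ratio 1.86), and on the higher side ATP6V0A1 fell from 86.8 to 33.1 TPM. NABP1, beside CAVIN2, rose from 6.18 to 28.5 TPM, and TMEFF2 on its other side went from 1.21 TPM to listed at 0. SMPD1, beside CAVIN3, rose from 6.09 to 18.0 TPM, and CCKBR on the other side went from 0.501 TPM to listed at 0. Next to CAVIN4, TMEFF1 fell from 19.5 to 1.54 TPM (log2 ratio -3.01), a change in the direction of CAVIN4, and MRPL50 had 24.4 and 16.1 TPM. Next to EHD2, BICRA had 16.3 and 8.10 TPM and NOP53 had 95.8 and 81.7 TPM, both within the limit. The neighbours of CAV3 are the overlapping OXTR, with 0.534 and 1.11 TPM, and RAD18, with 13.1 and 12.2 TPM.

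**Figure D5:**
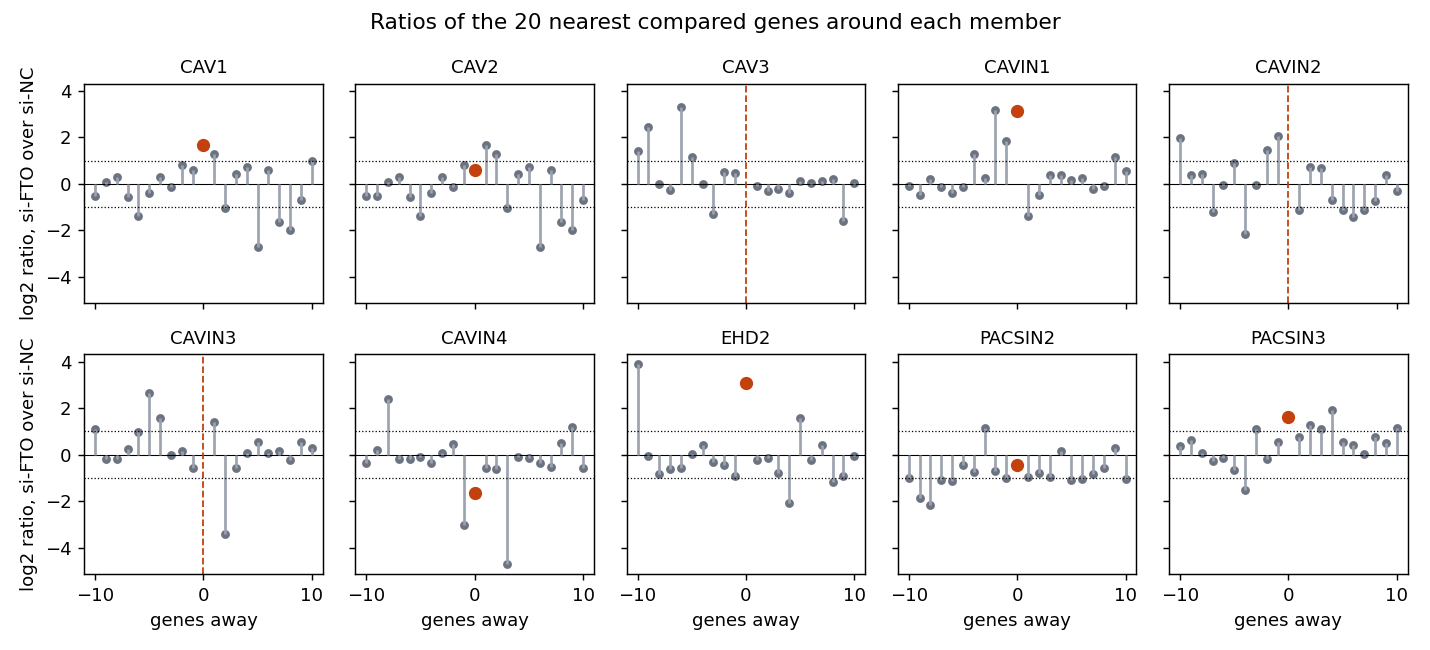
Log2 ratio of si-FTO over si-NC, with 1 TPM added, for the 20 nearest compared genes around each member, by order along the chromosome; the orange point is the member itself, a dashed line marks members listed at 0 in a group, and dotted lines are the 2-fold limits. Most grey points around PACSIN2 lie below 0, with a median of -0.95.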

How the data were processed

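Libraries were made with the KAPA Stranded kit from 3 si-NC and 3 si-FTO samples. Per the methods, the authors mapped reads to hg19 with Bowtie and quantified with RSEM; the submitters' processing notes name HISAT2. The values deposited are TPM (transcripts per 1000000), 1 mean for each group. A log2 fold change, p-value and q-value per gene were deposited too, with a table of selected genes, and were not used.

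Identifiers were matched to symbols for 55726 of 58174 genes. Log2 ratios of the means used a pseudocount of 1 TPM, genes with at least 0.5 TPM in at least 1 group and a limit of 2-fold. A limma fit was planned for values of single libraries, which group means do not allow. Depth and precision are unknown. Coordinates and coding sequences came from GRCh37 with GENCODE 44 lifted to it, and promoters from RefSeq (GRCh38.p14), taking the first window per gene.

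Members and lists were chosen with earlier results of these data known. Genes named were the members, FTO, the most abundant gene and those with the largest and smallest ratio of each list, list genes past 2-fold with at least 10 TPM, the nearest compared gene on each side, 5 genes like CAV1 and, of markers, the most abundant and those at or near 0. CDH1, ERG, EHD4, PACSIN1, PDGFRA, PDGFRB, FAP, COL3A1, ABCA1, SREBF2, FLOT1, DNM2, SNAP91, AMPH, SRGAP1 and overlapping genes were named after their values were seen. Of these, ERG, PDGFRB and COL3A1 also had the largest or smallest ratio of a list. SERHL2, SERHL and SCUBE1, near PACSIN2, were likewise named after their values were seen. SRGAP2 and PECAM1 were not matched, and a gene of the lipid supply list is not reported here and was left out of its counts. Python 3.11.15, numpy 2.4.6, pandas 2.3.3, Biopython 1.88 and matplotlib 3.10.9 were used. Calls were tested on simulated 4-fold changes put into si-NC means of at least 10 TPM. That test covers neither lower genes nor the spread between these libraries. Alternatives were another pseudocount, other filters, limits and neighbour numbers, median-ratio scaling and quantile normalization.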

Additional observations from a re-analysis of the deposited data

How the results depend on the processing

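The log2 ratios of FTO and of the 7 members with a value above 0 in both groups kept their direction and their side of the 2-fold limit under each alternative that gave a value: a pseudocount of 0.1, no filter, a minimum of 5 TPM, median-ratio scaling and quantile normalization. They ranged from 1.66 to 1.78 for CAV1, 0.58 to 0.73 for CAV2, 3.14 to 3.27 for CAVIN1, 3.08 to 3.39 for EHD2, 1.62 to 1.76 for PACSIN3, -0.45 to -0.32 for PACSIN2, -2.35 to -1.33 for CAVIN4 and -2.17 to -1.92 for FTO. CAVIN4 gave no value at 5 TPM. The scalings moved the median of all genes from -0.20 to -0.10 and -0.07. With a 4-fold limit, 3 members rose and 0 fell, beside 4.76% and 6.06% of all genes, and at a minimum of 5 TPM 0 fell, since CAVIN4 is below it. Of 331 values and counts of lists, neighbours and all genes under alternatives, 66 changed, counting medians that changed sign, became 0 or crossed the 2-fold limit, and counts or shares that moved by over 1.5 times; medians that moved without this were not counted. The clathrin and F-BAR medians turned positive with median-ratio scaling (both 0.09), and with quantile normalization the F-BAR median was positive (0.05) and the clathrin median negative (-0.10). The lipid supply median turned from 0.05 to -0.002 at a minimum of 5 TPM. No paired analysis was possible because the table holds group means only, although the titles share replicate numbers; for the same reason, leaving out each replicate was not run. The authors' p-value and q-value per gene were left unused, and without values of single libraries neither spread nor depth was set beside a difference.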
